A study of Homo sapiens with 16 samples.

Results

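The zinc finger genes described here are the human genes of chromosome 19 whose symbol is ZNF followed by a number only. They were chosen by that symbol, by their hg19 position and by a level of at least 0.5 CPM (the library's read counts scaled to a fixed total) in 2 or more of 16 RNA sequencing libraries. The annotation lists 242 such genes, 229 of them were in the table of 18332 genes, and all 229 met the level, as did 17115 genes of the whole table. No measured value other than the level enters this rule, but the rule was chosen with earlier results of these data known. The lowest gene was ZNF99, whose second highest library held 0.919 CPM, followed by ZNF878 at 1.38 CPM and ZNF154 at 1.54 CPM, and 0 such genes of the table lay under the level.

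MDA-MB-231 and MDA-MB-468, the source of the libraries, are established human breast cancer cell lines, which the labels describe as ER negative. Each line was held for 48 hours in 5 mM glucose (low glucose) or 25 mM glucose (high glucose), with 4 libraries in each of the 4 groups. Per the study's methods for its glucose experiments, cells of all groups were first conditioned in low glucose and then kept without serum, and the labels name no osmolarity control among these 16 samples. The labels call the libraries of a group replicates and do not say that they were cultured separately, so p-values measure the spread between these samples, which may be technical. Recovered reads ranged from 14094597 to 24425916 per library, and 3 reads, the limit that a count of 0 allows, came to 0.123 to 0.213 CPM for counting error only. Levels are given as normalized reads, the reads of a gene divided by the authors' size factor for the library, as mean ± SD with n = 4. VIM, a mesenchymal marker, averaged 96228 in low-glucose MDA-MB-231 and 21.5 in low-glucose MDA-MB-468, while CDH1, the epithelial cadherin, averaged 5.51 and 2007 and EGFR 9138 and 62683, so each line carried the markers of its label. ESR1 averaged 1.31 to 57.9 over the 4 groups and the leukocyte marker PTPRC 3.12 to 12.5.

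Krüppel-type zinc finger proteins bind DNA through a row of fingers, each a short loop that a zinc ion holds between a pair of cysteines and a pair of histidines. Many of them carry a KRAB domain, which binds the corepressor TRIM28 (also called KAP1) and through it brings in the histone methyltransferase SETDB1, heterochromatin proteins and histone deacetylases. Such proteins are known for silencing transposable elements, and on human chromosome 19 their genes lie in clusters that grew by tandem duplication.

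Finger repeats are shown first because they are what these genes share and because near-identical copies can split or share reads. Each is the stretch of the longest reading frame that encodes 1 finger and the linker after it, from the GENCODE transcript on GRCh37 (hg19), read in the direction of transcription, with the codons of the zinc-binding cysteines and histidines in capitals. ZNF781 (chr19:38160696-38160779, minus strand) and ZNF221 (chr19:44470336-44470419, plus strand) had the lowest log2 changes among the members called lower in high-glucose MDA-MB-468, although the annotation lists the identifier of ZNF781 as a pseudogene, without a coding sequence. ZNF100 (chr19:21910328-21910411, minus strand) was called lower in both lines, and ZNF91 (chr19:23544896-23544979, minus strand) encodes a known repressor of transposable elements.
ZNF781: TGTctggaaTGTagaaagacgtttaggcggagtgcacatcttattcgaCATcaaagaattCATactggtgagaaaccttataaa
ZNF221: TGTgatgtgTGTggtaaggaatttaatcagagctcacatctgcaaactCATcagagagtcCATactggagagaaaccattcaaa
ZNF100: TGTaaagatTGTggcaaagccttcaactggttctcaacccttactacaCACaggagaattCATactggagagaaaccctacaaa
ZNF91: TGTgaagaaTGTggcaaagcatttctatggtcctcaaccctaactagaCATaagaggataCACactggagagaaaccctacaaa
Each repeat was the first of its gene with the conserved linker that matched chromosome 19 once, and all 4 were 84 bases long. In their longest reading frames the 229 genes held a median of 12 fingers, from 1 to 31. A KRAB-like stretch was found by a letter pattern in the first 200 residues of 192 of them, and the other 37 had none, although such a pattern can miss divergent copies. The median member shared 2.87% of its transcript's 50-base words with another gene, and 27 members shared 20% or more. Another annotated gene overlapped 176 members, and for 95 of them it was protein-coding. Whether strand was used in counting is not stated in the sources used here, so the counts of overlapping members may include reads of the other gene.

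Promoters are shown for 3 members without a read in MDA-MB-231, and for ZNF671, which was lower in MDA-MB-468, since the lines differed most at such genes. Each is the 250 bases before the RefSeq transcription start, taken from a RefSeq promoter table (GRCh38.p14) and placed on GRCh37 by exact match, with CG dinucleotides, the sites at which DNA can be methylated, in capitals. They lie at chr19:53758077-53758326, minus strand (ZNF677), chr19:56988715-56988964, minus strand (ZNF667), chr19:58570357-58570606, plus strand (ZNF135) and chr19:58238993-58239242, minus strand (ZNF671).
ZNF677: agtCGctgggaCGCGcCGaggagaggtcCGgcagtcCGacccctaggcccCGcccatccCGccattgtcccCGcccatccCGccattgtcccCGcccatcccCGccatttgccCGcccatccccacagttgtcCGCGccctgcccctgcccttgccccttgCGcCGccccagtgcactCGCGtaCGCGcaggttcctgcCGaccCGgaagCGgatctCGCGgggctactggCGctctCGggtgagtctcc
ZNF667: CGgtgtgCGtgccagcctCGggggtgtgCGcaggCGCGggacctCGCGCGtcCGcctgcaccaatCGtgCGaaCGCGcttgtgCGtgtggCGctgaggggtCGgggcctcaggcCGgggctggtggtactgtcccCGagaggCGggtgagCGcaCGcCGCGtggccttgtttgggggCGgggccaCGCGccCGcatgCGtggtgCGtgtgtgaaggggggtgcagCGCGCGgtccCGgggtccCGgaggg
ZNF135: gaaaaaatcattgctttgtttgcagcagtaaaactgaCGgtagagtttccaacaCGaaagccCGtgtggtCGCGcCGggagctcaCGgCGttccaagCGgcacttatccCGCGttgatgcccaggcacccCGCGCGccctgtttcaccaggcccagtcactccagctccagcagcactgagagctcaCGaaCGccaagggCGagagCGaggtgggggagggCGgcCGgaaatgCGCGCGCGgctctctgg
ZNF671: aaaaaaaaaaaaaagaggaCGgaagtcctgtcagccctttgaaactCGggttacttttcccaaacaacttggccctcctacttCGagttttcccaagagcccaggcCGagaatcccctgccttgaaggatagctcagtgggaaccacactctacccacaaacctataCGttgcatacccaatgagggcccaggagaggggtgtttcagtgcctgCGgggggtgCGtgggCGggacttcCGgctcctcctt
CG dinucleotides numbered 28 in ZNF677, 35 in ZNF667, 24 in ZNF135 and 9 in ZNF671, and methylation was not measured in these libraries. The 4 do not stand for the rest, since in windows of 300 bases the 9 members near 0 in MDA-MB-231 that had a promoter in the table held a median of 21. Of the 229 members, 201 had a promoter in the table, and ZNF471 and ZNF114 had none there. In the same windows (50 bases of them after the start), members held a median of 20 CG dinucleotides, against 26 for 11942 promoters of genes that met the CPM level and 14 for all 27305 promoters. CCGGAAG, the core of ETS factor motifs, was found on either strand in 44.8% of members' promoters, in 18.0% of promoters of genes that met the level and in 10.7% of all promoters. GGGCGG, an SP factor motif, was found in 68.7%, 68.2% and 44.6%. ATGGCG, part of the YY1 motif, was found in 17.9%, 17.1% and 11.0%, and GCGCATGCG, an NRF1 motif, in 2.99%, 3.48% and 2.10%. None of the 4 motifs contains another, and a match describes letters in a window, not binding.

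Along the chromosome the members fell into 15 clusters when a gap of over 1 Mb between annotated ZNF genes began a new one, and 9 clusters of 4 or more held 222 members. They are numbered I (2.8 to 2.9 Mb, 4 members), II (7.1 to 9.9 Mb, 14), III (11.6 to 12.8 Mb, 25), IV (19.8 to 24.3 Mb, 33), V (35.2 to 35.5 Mb, 5), VI (36.7 to 38.3 Mb, 25), VII (44.0 to 45.6 Mb, 23), VIII (52.1 to 54.1 Mb, 37) and IX (56.0 to 59.0 Mb, 56). Transcripts of members had a median length of 3886 bases (1156 to 13894) and a median GC content of 42.4% (33.2% to 70.9%), against 2967 bases and 48.8% for all genes that met the level. Levels per length were low. The median member had 33.9 normalized reads per kb in low-glucose and 33.3 in high-glucose MDA-MB-231, and 61.1 and 55.1 in MDA-MB-468, where the median gene that met the level had 85.7, 85.0, 88.0 and 86.8.

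In MDA-MB-231, few of these genes were called changed in high glucose. Of 212 members tested, 2 rose and 3 fell (limma adjusted p under 0.05 over all genes tested), 0.943% and 1.42%, against 5.71% and 9.37% of 14884 genes. The 4 high-glucose values lay wholly above the 4 low-glucose values for 1 member and wholly below for 5, against 7.63% and 11.1% of all genes. The median log2 change was 0.02 for members and 0.00 for all genes. Quartiles of the change were -0.07 and 0.10 for members and -0.10 and 0.10 for all genes. Averaged over the 4 groups, the median member held 185.9 normalized reads, against 402.3 for the median gene tested. Whether this lower level bears on the number of calls was not tested. ZNF genes of other chromosomes gave 5 higher and 9 lower of 204, and the other genes of chromosome 19 gave 59 and 72 of 851. In bulk RNA, less RNA per cell and fewer cells that make it cannot be told apart.

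ZNF114 (ENSG00000178150, chr19:48773338-48790865, plus strand) held 201, 187, 174 and 175 normalized reads in the low-glucose libraries of MDA-MB-231. In high glucose it held 312, 323, 276 and 310.1, every value above every low-glucose value. Its log2 change was 0.72 ± 0.08 (SE, adjusted p = 3.83e-06) by limma, and the call held when any 1 library was left out. ZNF490 (ENSG00000188033, chr19:12686914-12750912, minus strand) went from 124, 123, 117 and 145 to 174, 158, 140.3 and 179, ranges that overlap, with a log2 change of 0.35 ± 0.10 (SE, adjusted p = 0.0269) by limma. Without low-glucose replicate 1, 2 or 3 or high-glucose replicate 1 or 4, its limma adjusted p was 0.0618 to 0.0888. ZNF490 also shared 56.6% of its 50-base words with another gene and overlapped 2 coding genes, so its counts are uncertain.

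ZNF100 (ENSG00000197020, chr19:21905573-21950381, minus strand) held 186, 141, 143 and 173 normalized reads in low-glucose and 128, 99.9, 140.3 and 106 in high-glucose MDA-MB-231, with no overlap and a limma log2 change of -0.44 ± 0.12 (SE, adjusted p = 0.0214). Without low-glucose replicate 1 or high-glucose replicate 2 or 4, the limma adjusted p was 0.0647 to 0.0819. ZNF724 (ENSG00000196081, chr19:23404401-23433196, minus strand), in the same cluster IV, fell by a log2 change of -0.35 ± 0.11 (SE, adjusted p = 0.036) by limma. That call was lost without any 1 of the 8 libraries, with a limma adjusted p of 0.0531 to 0.103, and under DESeq2 (adjusted p 0.123), and the gene shared 54.9% of its 50-base words. ZNF175 (ENSG00000105497, chr19:52074536-52095763, plus strand) averaged 604 ± 13.5 and 529 ± 47.5 normalized reads, a log2 change of -0.20 ± 0.06 (SE, adjusted p = 0.0362) by limma. Its limma adjusted p was 0.0695 to 0.131 without low-glucose replicate 1, 2 or 3 or high-glucose replicate 1 or 4, and 0.0985 after the length correction. The calls of the 4 genes other than ZNF114 thus each depended on single libraries.

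MDA-MB-468 showed a different picture, with more members lower than higher in high glucose. Of 227 members tested, 28 rose (12.3%) and 75 fell (33.0%) by limma, against 24.9% and 22.7% of 15757 genes. Without overlap between the 4 values of each group, 23 were higher and 62 lower, against 22.2% and 20.4% of all genes. The median log2 change was -0.13 for members, of which 27.8% lay above 0, and 0.00 for all genes. Among ZNF genes of other chromosomes 51 rose and 56 fell of 205 (median -0.04), and among other chromosome 19 genes 259 rose and 195 fell of 963 (median 0.02). Summed over all members, the 4 low-glucose libraries held 67327 to 69370 normalized reads. The high-glucose libraries held 64527, 64153, 61169 and 60305, all lower, with replicates 3 and 4 below replicates 1 and 2. The sums in MDA-MB-231 overlapped, at 42287 to 43738 in low and 42426 to 43701 in high glucose.

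**Figure D1:**
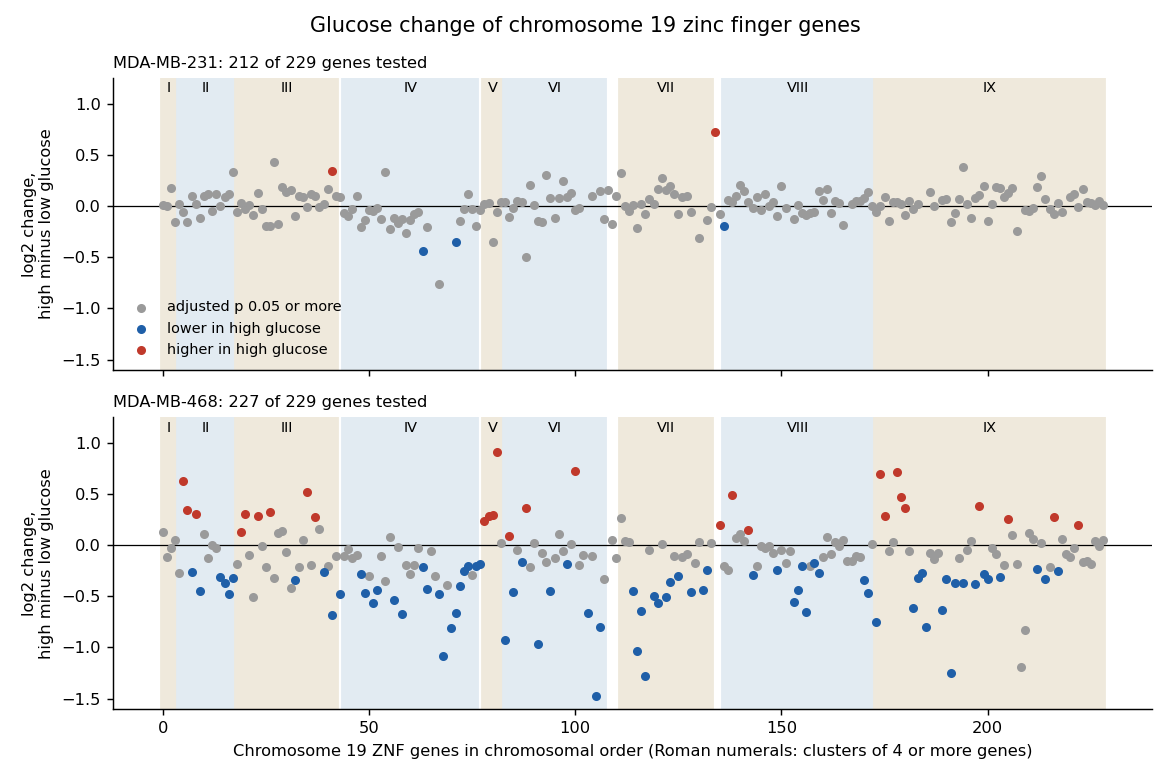
Log2 change of normalized reads, high minus low glucose, for each chromosome 19 ZNF gene in chromosomal order, in MDA-MB-231 (top, 212 genes) and MDA-MB-468 (bottom, 227 genes), where shaded bands mark clusters I to IX and colored points passed the limma threshold of 0.05. In MDA-MB-231 5 points are colored, while in MDA-MB-468 75 are lower and 28 higher, with 16 lower and 0 higher in cluster IV.

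The 6 largest falls in MDA-MB-468 that met the naming rule belonged to clusters VI, VII and IX. ZNF781 (ENSG00000196381, chr19:38159480-38167294, minus strand) held 63.3, 70.8, 91.9 and 87.1 normalized reads in low and 23.3, 30.6, 26.3 and 29.5 in high glucose, with a limma log2 change of -1.47 ± 0.17 (SE, adjusted p = 2.24e-06). Of the pseudogene's 50-base words, 94.8% also occur under another identifier of the same symbol. ZNF221 (ENSG00000159905, chr19:44455375-44471861, plus strand) held 235, 203, 197 and 254 in low and 125, 127, 72.1 and 58.2 in high glucose, a limma log2 change of -1.28 ± 0.20 (SE, adjusted p = 4.81e-05). The high-glucose values were all lower and fell into a higher pair, replicates 1 and 2, and a lower pair. ZNF460 (ENSG00000197714, chr19:57791419-57805437, plus strand) was split more widely, at 415, 464, 109 and 127 in high against 524, 497, 553 and 596 in low glucose. Its limma log2 change was -1.25 ± 0.34 (SE, adjusted p = 0.00609), and DESeq2 gave -0.96 with an adjusted p of 0.126.

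ZNF404 (ENSG00000176222, chr19:44376517-44405537, minus strand) held 206, 202, 197 and 175 normalized reads in low and 96.2, 93.9, 90.4 and 97.8 in high glucose, a limma log2 change of -1.04 ± 0.09 (SE, adjusted p = 9.64e-08) with a narrow spread in both groups. ZNF850 (ENSG00000267041, chr19:37205285-37263727, minus strand), which encodes 29 fingers, held 614, 615, 601 and 708 in low and 384, 376, 270.1 and 284 in high glucose, with a limma log2 change of -0.96 ± 0.10 (SE, adjusted p = 6.43e-07). ZNF565 (ENSG00000196357, chr19:36673178-36737159, minus strand) held 128, 140.5, 159 and 146 in low and 74.9, 88.5, 67.5 and 69.1 in high glucose, with a limma log2 change of -0.93 ± 0.12 (SE, adjusted p = 5.22e-06). In all 3 genes every high-glucose value lay below every low-glucose value. ZNF850 and ZNF565 each overlapped a coding gene.

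Among the rises in MDA-MB-468, ZNF30 (ENSG00000168661, chr19:35417807-35436074, plus strand) came first, from 79.1, 87.4, 50.8 and 89.8 normalized reads in low to 131, 139.8, 160.2 and 137 in high glucose, a limma log2 change of 0.91 ± 0.15 (SE, adjusted p = 0.000121). ZNF569 (ENSG00000196437, chr19:37902057-37960177, minus strand) held 205, 254, 213 and 218 in low and 367, 374, 379 and 346 in high glucose, a limma log2 change of 0.72 ± 0.07 (SE, adjusted p = 5.9e-07). Both carry the KRAB pattern, and their groups did not overlap. ZNF580 (ENSG00000213015, chr19:56146382-56154836, plus strand), ZNF579 (ENSG00000218891, chr19:56088140-56092214, minus strand) and ZNF358 (ENSG00000198816, chr19:7580178-7585911, plus strand) have no KRAB pattern. They rose by limma log2 changes of 0.71 ± 0.08 (SE, adjusted p = 2.34e-06), 0.70 ± 0.09 (SE, adjusted p = 1.17e-05) and 0.63 ± 0.07 (SE, adjusted p = 7.01e-07). ZNF580 went from 181 ± 10.6 to 298 ± 29.8 normalized reads, ZNF579 from 144 ± 15.4 to 234 ± 21.3 and ZNF358 from 479 ± 38.3 to 740.1 ± 57.3. ZNF580 overlapped 2 coding genes, ZNF581 among them, and ZNF358 overlapped 1, and ZNF579 shared 20.6% of its 50-base words with another gene. The sixth, ZNF563 (ENSG00000188868, chr19:12428291-12444534, minus strand), went from 23.9 ± 4.60 to 34.3 ± 2.65 with a limma log2 change of 0.52 ± 0.20 (SE, adjusted p = 0.0436). It lost its call without low-glucose replicate 2, 3 or 4 or any 1 high-glucose replicate, with a limma adjusted p of 0.0584 to 0.134, and edgeR and DESeq2 gave adjusted p-values of 0.0586 and 0.132.

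**Figure D2:**
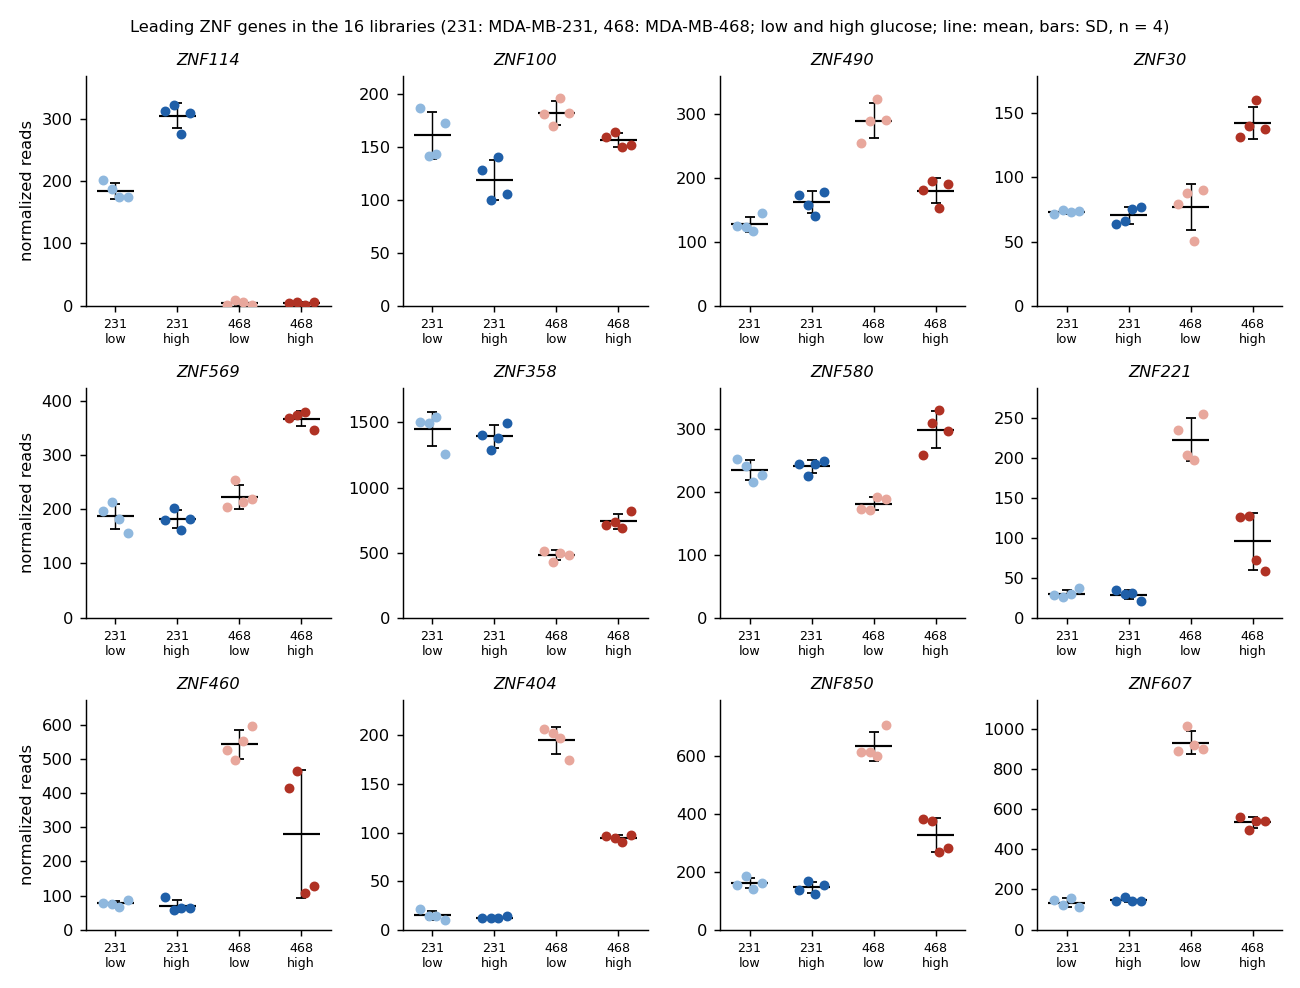
Normalized reads of 12 leading ZNF genes in the 16 libraries, 1 point per library, with the mean (line) and SD (bars, n = 4) of each group, on axes that start at 0. ZNF114 is higher in high glucose in MDA-MB-231 and near 0 in MDA-MB-468, ZNF30, ZNF569, ZNF358 and ZNF580 are higher in high-glucose MDA-MB-468, and ZNF221, ZNF460, ZNF404, ZNF850 and ZNF607 are lower there, with ZNF460 and ZNF221 split into a pair of higher and a pair of lower libraries.

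By cluster, counts in MDA-MB-468 are set against the 24.9% of all genes that rose and the 22.7% that fell, and whether clusters differ from each other was not tested. In cluster IV, which holds ZNF91, ZNF93, ZNF100 and ZNF724, 16 of 33 members fell and 0 rose, 32 of 33 changes lay below 0, and the median log2 change was -0.28. Transcripts of its members had a median GC content of 37.2%. Of all genes with a GC content up to 40.3%, 33.8% fell and 18.1% rose. Location and GC content cannot be told apart here. Summed over the cluster, low-glucose libraries held 6844, 6921, 6774 and 6636 normalized reads and high-glucose libraries 5930.1, 5802, 5607 and 5224. In cluster VII, with ZNF221, ZNF404 and ZNF224, 12 of 23 fell and 0 rose (median -0.24), and the sums went from 6246, 6604, 6359.5 and 6455 to 5470.3, 5253, 5252 and 5168. The values of both clusters did not overlap between the groups. Other genes inside the same spans gave 0 higher and 4 lower of 16 in cluster IV (median -0.21) and 5 higher and 8 lower of 26 in cluster VII. Such other genes were set apart by symbol only. Across the clusters they include ZNF or ZFP genes of other symbol forms, ZNF pseudogenes and ZNF antisense transcripts.

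Cluster V had more rises than falls. Of its 5 members, 4 rose and 0 fell in MDA-MB-468, with a median log2 change of 0.28, and its sums were 1000.4, 1006, 912 and 960.2 normalized reads in low glucose and 1171, 1132, 1249.8 and 1202 in high glucose. The genes that rose were ZNF30, named above, and ZNF302, ZNF181 and ZNF599, which were chosen for naming after their values were seen. Calls in the other clusters were mixed, with 3 higher and 6 lower of 14 in cluster II, 6 and 3 of 25 in III, 3 and 9 of 25 in VI, 2 and 10 of 37 in VIII, 9 and 17 of 56 in IX and 0 and 0 of 4 in I. Their median log2 changes ran from -0.19 in cluster II to 0.01 in cluster I. In MDA-MB-231 cluster IV had a median of -0.12, with 25 of 28 changes below 0 and 2 members called lower, next to 9.37% of all genes. The 2 were ZNF100 and ZNF724, whose calls depended on single libraries. The 8 other genes tested inside the span had a median of -0.10.

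Transcript length and GC content moved with the change in MDA-MB-468. The log2 change fell with length (Spearman's rho -0.22 over 227 members, given as a description) and rose with GC content (rho 0.24), and over 15243 genes of the table the values were -0.14 and 0.17. Split into 3 groups by length (up to 2963, 3004 to 4539, and 4558 bases or more), members had medians of -0.04, -0.13 and -0.19, and all genes within the same bounds 0.06, -0.01 and -0.07. Of the members, 17 of 76, 27 of 76 and 31 of 75 fell (22.4%, 35.5% and 41.3%), and of all genes within the same bounds 15.3%, 24.0% and 35.5%, so the share rose with length in both. In 3 groups by GC content (up to 40.3%, to 44.0% and above), members had medians of -0.20, -0.11 and -0.08, and all genes -0.07, -0.04 and 0.04. Members thus lay below all genes in each of the groups. Uncorrected, 28 members rose and 75 fell, beside 3925 and 3570 of all 15757 genes. When each library's values were corrected for length, 28 members rose and 65 fell, beside 4184 and 3149 of all genes. When corrected for GC content 29 members rose and 69 fell, beside 3931 and 3647 of all genes. In MDA-MB-231 the members' rho was 0.03 with length and 0.13 with GC content (212 members), against -0.19 and 0.10 over 14436 genes.

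**Figure D3:**
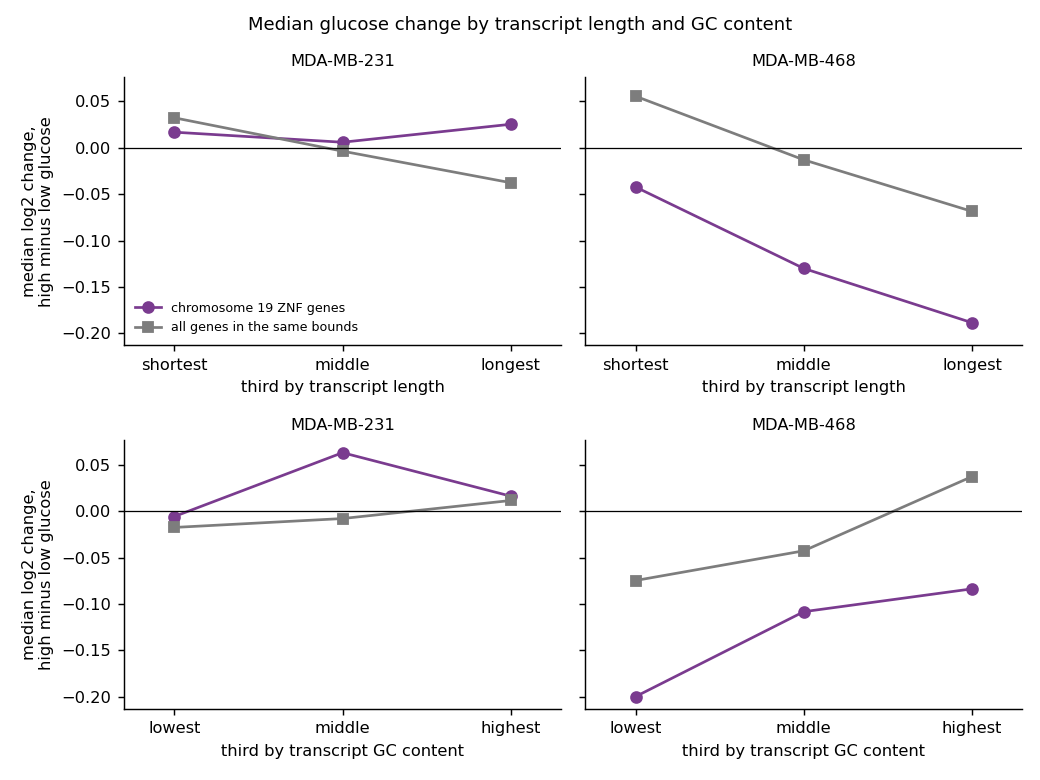
Median log2 change, high minus low glucose, in 3 groups by transcript length (top) and transcript GC content (bottom), for chromosome 19 ZNF genes (circles) and for all genes within the same bounds (squares), in MDA-MB-231 (left) and MDA-MB-468 (right). In MDA-MB-468 the circles lie below the squares in all groups, at -0.04, -0.13 and -0.19 by length, while in MDA-MB-231 the medians stay between -0.04 and 0.06.

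Members were also counted by the KRAB pattern. In MDA-MB-468, 18 of 190 members with the pattern rose and 67 fell (median -0.18), and of 37 without it 10 rose and 8 fell (median -0.05), next to the 24.9% and 22.7% of all genes. Whether the 2 sets differ was not tested. Those without it also had shorter transcripts of higher GC content, so these features cannot be told apart here. The number of fingers had a rho of -0.08 with the change (227 members). Of the 27 members that shared 20% or more of their 50-base words, 3 rose and 12 fell.

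Between the lines, 17 of 229 members changed more upward and 39 more downward in MDA-MB-468 than in MDA-MB-231 by the limma interaction test (7.42% and 17.0%), against 17.0% and 13.9% of 17115 genes. The median difference of the log2 changes was -0.16 for members and 0.00 for all genes. For members that passed the level in 1 line alone, the value rests partly on low reads in the other line. Of the 210 members that passed in both, 17 and 37 were called (8.10% and 17.6%, median -0.15), against 20.5% and 16.1% of 13573 genes. ZNF genes of other chromosomes gave 39 and 33 of 215, and other chromosome 19 genes 176 and 145 of 1014. The largest downward values that met the rule were ZNF221 at -1.21 ± 0.32 (SE, adjusted p = 0.00756), ZNF490 at -1.03 ± 0.14 (SE, adjusted p = 3.29e-05), ZNF565 at -0.97 ± 0.19 (SE, adjusted p = 0.00105) and ZNF607 at -0.94 ± 0.12 (SE, adjusted p = 2.07e-05), all by limma. ZNF490 was called higher in MDA-MB-231 and fell in MDA-MB-468, by a limma log2 change of -0.68 ± 0.09 (SE, adjusted p = 1.12e-05). ZNF607 (ENSG00000198182, chr19:38187272-38210662, minus strand) held 147, 121, 158 and 114 normalized reads in low and 142, 164, 145 and 143 in high glucose in MDA-MB-231, which overlap. In MDA-MB-468 it held 889, 1013, 919 and 897 in low and 558, 497, 539 and 540.3 in high glucose, which do not. It shared 20.2% of its 50-base words with another gene.

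The largest upward interaction values were ZNF30 at 0.97 ± 0.21 (SE, adjusted p = 0.00163), ZNF382 at 0.86 ± 0.29 (SE, adjusted p = 0.0302), ZNF569 at 0.76 ± 0.13 (SE, adjusted p = 0.00029) and ZNF579 at 0.70 ± 0.13 (SE, adjusted p = 0.000648), again by limma. ZNF382 (ENSG00000161298, chr19:37095719-37125016, plus strand), described as a tumor suppressor in several cancers, is the least certain of them. It averaged 16.7 ± 1.65 and 12.0 ± 4.14 normalized reads in low- and high-glucose MDA-MB-231 and 82.9 ± 10.6 and 107 ± 16.7 in MDA-MB-468. Its interaction had a limma adjusted p of 0.0534 to 0.0658 without replicate 2 of low-glucose or 1 or 2 of high-glucose MDA-MB-231, or replicate 1 or 3 of low-glucose or 1 of high-glucose MDA-MB-468. Taking the lines separately, 28 of the 210 members tested in both (13.3%) were called higher in MDA-MB-468 and not called in MDA-MB-231, and 65 (31.0%) were called lower and not called, against 21.4% and 19.3% of 13573 genes. Only ZNF724 and ZNF100 were called lower in both (0.952%, against 3.02% of the 13573 genes), and 0 were called higher in both (against 1.86%). In MDA-MB-468 ZNF724 changed by a log2 value of -0.67 ± 0.12 (SE, adjusted p = 0.000265) and ZNF100 by -0.22 ± 0.08 (SE, adjusted p = 0.0362) by limma. That call of ZNF100 was lost without low-glucose replicate 1, 3 or 4 or high-glucose replicate 1, 3 or 4 (limma adjusted p 0.0514 to 0.112), after the length or GC correction (0.151 and 0.256) and under DESeq2 (0.0998).

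The lines themselves differed far more than the glucose groups. In low glucose, 172 of 229 members were higher in MDA-MB-468 and 35 lower by limma (75.1% and 15.3%), against 45.0% and 40.4% of 17115 genes, and the median log2 difference was 0.83 for members and 0.08 for all genes. Since 17 members passed the level in MDA-MB-468 alone and 2 in MDA-MB-231 alone, and so had to differ, the 210 that passed in both are counted apart. Of these, 155 were higher in MDA-MB-468 and 33 lower (median 0.78), against 5736 and 5717 of 13573 genes (median 0.00). ZNF genes elsewhere gave 96 higher and 80 lower of 215 (median 0.08), and other chromosome 19 genes 474 and 382 of 1014 (median 0.14). Among those that passed in both lines, 136 of 175 with the KRAB pattern were higher and 19 lower (median 0.83), and without it 19 and 14 of 35 (median 0.22). The GC content of the transcript had a rho of -0.27 with the difference over 229 members and -0.03 over 16521 genes. Both sets include genes that passed in 1 line alone, so these values rest partly on the level.

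By cluster, the members that passed the level in both lines are counted, since the direction of the others was fixed by the level. In cluster VI all 22 such members were higher in MDA-MB-468 (median log2 difference 1.28), as were all 8 such other genes inside its span (median 1.45), and 3 more members and 10 more other genes passed in 1 line alone. Those 8 were mostly ZNF or ZFP genes of another symbol form (ZFP14, ZFP82, ZFP30, ZNF585A and ZNF585B). The rest were the antisense transcripts ZNF566-AS1 and ZNF529-AS1, and LINC00665. In cluster IV 23 of 28 were higher and 0 lower (median 1.21), and among its other genes 4 were higher and 2 lower of 6, with 5 members and 14 other genes passing in 1 line alone. Clusters VII, VIII and IX gave 20 and 1 of 21, 29 and 3 of 35, and 38 and 9 of 51, with similar medians of 0.86, 0.87 and 0.74. In cluster II, by contrast, 2 were higher and 9 lower of 14 (median -0.53), and its other genes gave 7 and 19 of 31 (median -0.74). Most of the 40 other genes in its span lay between groups of ZNF genes. With a gap of 500 kb, cluster II split into 7.1 to 7.6 Mb and 8.6 to 9.9 Mb. These held 5 other genes each, some passing in 1 line alone, with 3 higher and 2 lower, and 2 higher and 3 lower. In cluster III 13 were higher and 6 lower of 25. These counts stand next to 5736 and 5717 of the 13573 genes, and differences between clusters were not tested.

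**Figure D4:**
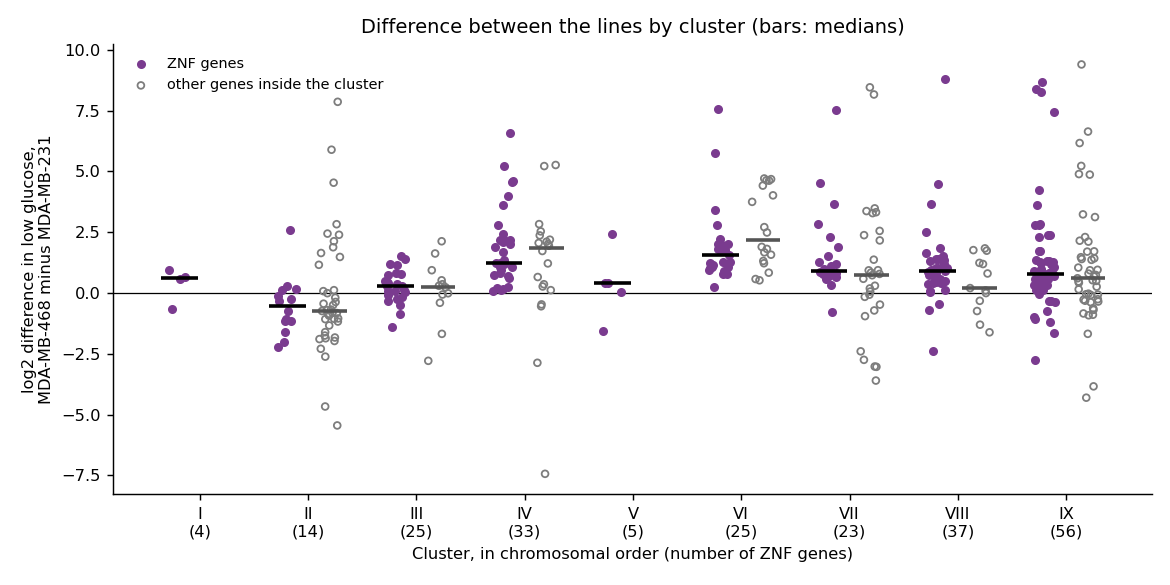
Fitted log2 difference between the lines in low glucose, MDA-MB-468 minus MDA-MB-231, for ZNF genes (filled) and for other genes inside the same cluster (open) in clusters I to IX, with medians as bars. The open points include ZNF or ZFP genes of other symbol forms. All 25 ZNF genes of cluster VI lie above 0, 3 of which met the level in MDA-MB-468 alone, and the median of cluster II lies at -0.53. For genes without a read in a line, the plotted value depends on the pseudocount of 1.

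At one end stood 15 members with a mean of 3 reads or fewer in both MDA-MB-231 groups, against 0 in MDA-MB-468. All 15 met the level through MDA-MB-468 alone, and of the 17115 genes 8.57% were near 0 by the same measure in the former line and 5.59% in the latter, next to 6.55% and 0% of members. ZNF677 (ENSG00000197928, chr19:53738634-53758151, minus strand) had 0 reads in all 8 MDA-MB-231 libraries and 483, 420.3, 458 and 419 normalized reads in low-glucose MDA-MB-468, at least 706-fold higher against a floor of 3 reads over the group. ZNF667 (ENSG00000198046, chr19:56950694-56989434, minus strand), a gene often methylated in cancers, had 0 and 393, 434, 372 and 440.1, at least 643-fold higher. ZNF135 (ENSG00000176293, chr19:58570607-58597677, plus strand) had 0 and 341, 338, 346 and 312, at least 527-fold higher, and ZNF471 (ENSG00000196263, chr19:57019219-57041590, plus strand) had 0 and 311, 309, 293 and 322, at least 487-fold higher. The other members without a read in these 8 libraries were ZNF835, ZNF728 and ZNF99. ZNF793 (ENSG00000188227, chr19:37997841-38039664, plus strand) averaged 1.04 and 0.990 normalized reads in the MDA-MB-231 groups and 356 ± 21.5 in low-glucose MDA-MB-468. The 15 lay in clusters IV (5), VI (2), VII (2), VIII (2) and IX (4).

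Within MDA-MB-468, 2 of the 5 genes described here passed the test as lower in high glucose. ZNF471 went from 309 ± 11.7 to 177 ± 7.87 normalized reads, a limma log2 change of -0.80 ± 0.07 (SE, adjusted p = 8.76e-08), and ZNF667 from 409.7 ± 32.6 to 339 ± 30.9, a change of -0.27 ± 0.07 (SE, adjusted p = 0.00579). ZNF677, ZNF135 and ZNF793 had limma log2 changes of -0.15 ± 0.07 (SE, adjusted p = 0.0758), -0.08 ± 0.08 (SE, adjusted p = 0.385) and -0.10 ± 0.08 (SE, adjusted p = 0.366). The interaction of ZNF471 was -0.80 ± 0.20 (SE, adjusted p = 0.00498) by limma, but with 0 reads in MDA-MB-231 edgeR and DESeq2 gave adjusted p-values of 0.9999 and 0.739.

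**Figure D5:**
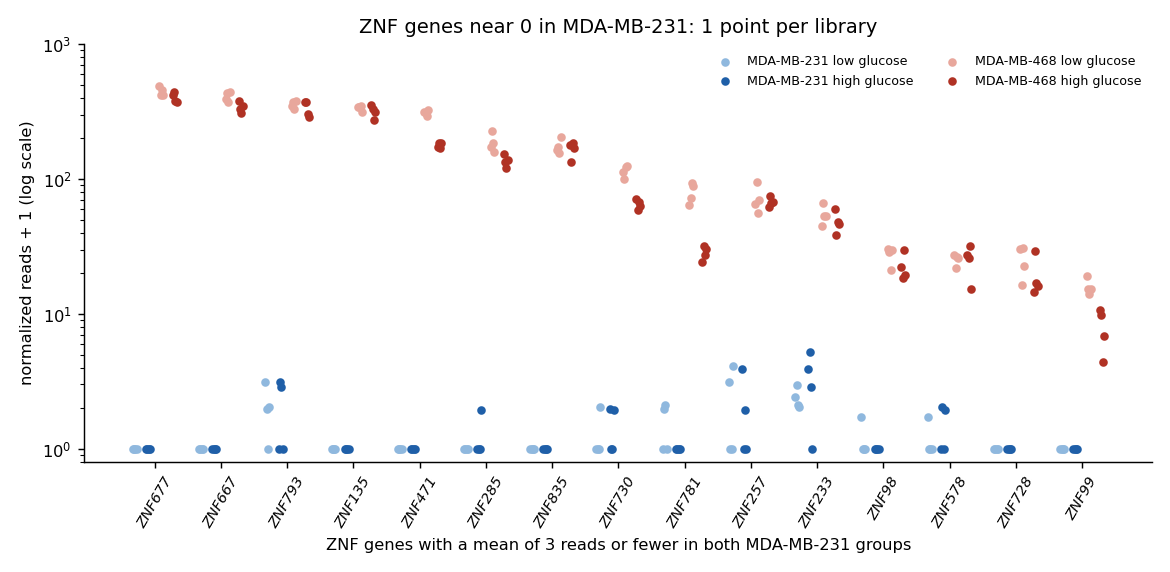
Normalized reads plus 1, on a log scale, of the 15 ZNF genes with a mean of 3 reads or fewer in both MDA-MB-231 groups, 1 point per library in the 4 groups. The MDA-MB-231 points lie at or near 1 (0 reads), and the MDA-MB-468 points lie above them for each gene, with ZNF677 at 445 on average in low glucose.

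Only a few members were much lower in MDA-MB-468. ZNF114 averaged 184 ± 12.8 normalized reads in low-glucose MDA-MB-231 against 4.42 ± 4.15 in MDA-MB-468, and ZNF546 (ENSG00000187187, chr19:40490041-40526945, plus strand) averaged 52.6 ± 5.61 and 3.81 ± 1.58. They were the 2 members that met the level in MDA-MB-231 alone, so their direction was fixed by the level, and their log2 differences of -5.43 and -3.54 are given as a description. ZNF671 (ENSG00000083814, chr19:58231119-58238992, minus strand), often methylated in tumors, averaged 73.3 ± 11.1 in the former and held 7.12, 9.95, 10.5 and 12.6 in the latter (-2.76), and its high-glucose MDA-MB-468 libraries held 9.72, 16.4, 1.14 and 2.53. ZNF175 and ZNF699 (ENSG00000196110, chr19:9401816-9420514, minus strand) differed by log2 values of -2.36 and -2.21. ZNF175, ZNF671 and ZNF699 passed the limma threshold, with adjusted p-values of 7.29e-15, 2.47e-05 and 7.6e-12.

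Of 10 members listed for their known roles, 1 rose and 4 fell with glucose in MDA-MB-468, ZNF667 among them, next to 24.9% and 22.7% of all genes, and 0 of the 9 tested in MDA-MB-231 passed limma's threshold. ZNF91 (ENSG00000167232, chr19:23487793-23578273, minus strand) and ZNF93 (ENSG00000184635, chr19:20011722-20074273, plus strand) encode repressors of young transposable elements. ZNF91 held 755, 781, 811 and 812 normalized reads in low-glucose and 655, 708, 544 and 512 in high-glucose MDA-MB-468, a limma log2 change of -0.40 ± 0.08 (SE, adjusted p = 0.000602), and replicates 1 and 2 of high glucose again exceeded 3 and 4. ZNF93 went from 391 ± 29.0 to 320.4 ± 13.3, a limma log2 change of -0.28 ± 0.07 (SE, adjusted p = 0.00179). ZNF224 (ENSG00000267680, chr19:44598514-44614039, plus strand), a cofactor of the Wilms tumor protein, fell by a log2 change of -0.36 ± 0.10 (SE, adjusted p = 0.00611), and ZNF382 rose by 0.37 ± 0.13 (SE, adjusted p = 0.0304), both by limma. The call of ZNF382 was lost without low-glucose replicate 1 or 3 or high-glucose replicate 1 or 2 of MDA-MB-468 (limma adjusted p 0.0542 to 0.115) and under DESeq2 (adjusted p 0.0559). ZNF274 (ENSG00000171606, chr19:58694396-58724928, plus strand), which brings SETDB1 to zinc finger genes themselves, averaged 881 ± 32.9 and 868 ± 56.0 in MDA-MB-468 and 699 ± 22.5 and 759 ± 34.2 in MDA-MB-231. ZNF331, an imprinted gene, ZNF304 and ZNF420 had log2 changes of 0.01, -0.12 and 0.11 in MDA-MB-468, and ZNF671 -0.82, none past the limma threshold (adjusted p from 0.116 to 0.923).

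The 5 members with the most normalized reads per kb were ZNF146, ZNF428, ZNF358, ZNF444 and ZNF581, none of which has the KRAB pattern. ZNF146 (ENSG00000167635, chr19:36705504-36729673, plus strand), a protein made almost wholly of fingers, averaged 1712 ± 92.2, 1596 ± 107, 2949 ± 111 and 3131 ± 58.1 normalized reads in low- and high-glucose MDA-MB-231 and low- and high-glucose MDA-MB-468. Its log2 change in MDA-MB-468 was 0.09 ± 0.03 (SE, adjusted p = 0.0394) by limma, lost without low-glucose replicate 1 or 3 or high-glucose replicate 1, 2 or 3 (limma adjusted p 0.0596 to 0.126) and under edgeR and DESeq2 (adjusted p 0.0529 and 0.06). ZNF581 (ENSG00000171425, chr19:56146825-56156989, plus strand), which overlaps ZNF580 on the same strand, averaged 229 ± 8.10 and 316 ± 12.9 in MDA-MB-468, a limma log2 change of 0.47 ± 0.06 (SE, adjusted p = 1.65e-05). Reads of the overlap may have been split between the pair, so their rises may not be independent. ZNF428 and ZNF444 had log2 changes of 0.04 and -0.06 there, with limma adjusted p-values of 0.514 and 0.359.

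A list of KRAB corepressors was counted as well, which also holds chromatin genes such as HELLS and the DNA methyltransferases. By limma's calls the listed genes moved only downward in MDA-MB-231 and both ways in MDA-MB-468. Of 22 listed genes 21 were in the table. In MDA-MB-231 0 rose and 9 fell by limma (median log2 change -0.11), and in MDA-MB-468 5 rose and 10 fell (median -0.09), against 5.71% and 9.37% and against 24.9% and 22.7% of all genes. TRIM28, the scaffold, averaged 7547 ± 494 and 6674 ± 361 normalized reads in low- and high-glucose MDA-MB-231, a limma log2 change of -0.18 ± 0.04 (SE, adjusted p = 0.0126), and 7185 ± 181 and 10362 ± 513 in MDA-MB-468, a change of 0.53 ± 0.03 (SE, adjusted p = 3.4e-09). SETDB1 changed by log2 values of -0.00 and -0.28 ± 0.04 (SE, adjusted p = 1.7e-05), and CHD4, a remodeler of the NuRD complex, by -0.19 ± 0.03 (SE, adjusted p = 0.000547) and 0.89 ± 0.03 (SE, adjusted p = 1.07e-11), in that order of lines and by limma. HELLS, a remodeler needed for DNA methylation, fell in both lines, by log2 changes of -0.42 ± 0.08 (SE, adjusted p = 0.00139) and -0.45 ± 0.09 (SE, adjusted p = 0.000595) by limma.

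Between the lines in low glucose, 12 of the 21 listed genes were higher in MDA-MB-468 and 6 lower by limma (median log2 difference 0.48), against 45.0% and 40.4% of all genes. The DNA methyltransferase DNMT3A averaged 254 ± 12.0 normalized reads in MDA-MB-231 against 2055 ± 101 in MDA-MB-468, DNMT3B 314 ± 33.1 and 58.4 ± 3.50, and DNMT1, which maintains methylation, 4878 ± 205 and 14851 ± 209. Their limma log2 differences were 3.01 ± 0.05 (SE, adjusted p = 1.92e-18), -2.40 ± 0.11 (SE, adjusted p = 5.93e-13) and 1.61 ± 0.03 (SE, adjusted p = 6.1e-19). Whether these levels bear on the zinc finger genes was not tested.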

How the data were processed

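RNA of MDA-MB-231 and MDA-MB-468 cells in low or high glucose was sequenced in 16 libraries, 4 per group, grouped by the labels. The deposited signal values are read counts that the authors divided by 1 size factor per library. For these libraries the labels name hg38 and edgeR, and the study's methods describe trimming with Trimmomatic and alignment by TopHat to hg19 for its tumors. The aligner, the counting program and its use of strand for the cell lines are not given in the sources used here. Dividing by the smallest step of a column gave whole reads for 100% of values (tolerance 0.01), so reads were recovered, and 0 columns were without a sample.

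Identifiers were matched to GENCODE on GRCh37, whose positions are printed, with 17647 of 18332 found and 16633 given a symbol. Members and gene lists were chosen with earlier results of these data known. The main test was limma 3.58.1 (R 4.3.3, lmFit and eBayes with trend, two-sided) on log2(value + 1), which understates changes of low genes, with Benjamini-Hochberg adjustment over all genes tested and a threshold of 0.05. Glucose was tested within each line over genes that reached 0.5 CPM in at least 2 of the line's 8 libraries. The interaction and the difference between lines in low glucose were tested over all 16 libraries, with a single estimate of spread. Scripts were tested on simulated data.

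Named genes were a list of 10 known genes, the 6 largest rises and falls per line among called members without overlap and averaging 1 CPM or more in either group, the 4 largest interactions and 5 largest line differences in each direction, the 5 with the most reads per kb, and those called in both lines. Of these 38 genes, 32 overlapped another annotated gene and 17 a coding one, and 5 shared 20% or more of their 50-base words. The alternatives were other filters, pseudocounts and scalings, edgeR 4.0.16, DESeq2 1.42.0, corrections for transcript length and GC content, a replicate block, fits without each library, and leaving out members with shared sequence. A cluster gap of 500 kb gave 18 clusters, 10 of them with 4 or more members.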

Additional observations from a re-analysis of the deposited data

Results flagged for a closer look

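In 16 named genes the glucose change differed between the lines by the limma interaction test (adjusted p over all genes tested), given here as the log2 change in MDA-MB-468 minus that in MDA-MB-231. The difference was below 0 for ZNF221 (-1.21), ZNF490 (-1.03), ZNF565 (-0.97), ZNF607 (-0.94), ZNF404 (-0.82), ZNF850 (-0.82), ZNF471 (-0.80) and ZNF224 (-0.55). It was above 0 for ZNF30 (0.97), ZNF382 (0.86), ZNF569 (0.76), ZNF579 (0.70), ZNF358 (0.68), ZNF580 (0.67), ZNF581 (0.45) and ZNF146 (0.19). Adjusted p-values ranged from 2.07e-05 for ZNF607 to 0.0354 for ZNF146. ZNF471 had no reads in MDA-MB-231, so its value rests on MDA-MB-468. Under DESeq2 the adjusted p of ZNF404 was 0.0714 and that of ZNF382 0.0528. Without 1 library at a time, ZNF224 had a limma adjusted p of 0.0563 to 0.0609 when replicate 1 or 3 of low-glucose or 3 of high-glucose MDA-MB-231, or replicate 4 of low-glucose or 2 of high-glucose MDA-MB-468, was left out. ZNF146 had 0.0523 to 0.0708 when replicate 2 or 4 of low-glucose or 1 of high-glucose MDA-MB-231, or replicate 1 or 3 of low-glucose or 1, 2 or 3 of high-glucose MDA-MB-468, was left out.

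Groups of 4 values were tested for named genes and for the sum over all members. Of 147 such groups, 5 held a library far from the other 3 by Dixon's test at 95%, which chance alone gives in about 1 of 20 groups. The lowest library of low-glucose MDA-MB-231 held 1256 normalized reads of ZNF358, with the next at 1497. In high-glucose MDA-MB-231 the highest library held 95.4 of ZNF460 (next 63.7), and 1 held 164 of ZNF607 (next 144.9). In low-glucose MDA-MB-468 the highest held 708 of ZNF850 (next 615) and 71.8 of ZNF699 (next 58.5).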

How the results depend on the processing

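No called change of a named gene reversed its direction under any alternative run. Counts and medians were compared by size only. In MDA-MB-231 the balance of the few calls did turn. More members were higher than lower under DESeq2 (2 and 1), the length correction (4 and 2), the replicate block with length correction (3 and 1) and some fits without 1 library. In MDA-MB-231, where 2 members were higher and 3 lower, DESeq2 called 1 lower, the length correction 4 higher, the GC correction 5 lower, the replicate block with length correction 1 lower, and the fit without members that share sequence 1 higher, and without 1 library at a time the counts were 1 to 3 higher and 0 to 3 lower (median log2 change 0.00 to 0.03). In MDA-MB-468 the fits without 1 library gave 21 to 25 higher and 64 to 82 lower (median -0.16 to -0.12), and the other alternatives 20 to 29 higher and 62 to 87 lower (median -0.15 to -0.10). Without 1 library, the interaction counts were 12 to 16 higher and 33 to 45 lower, and the line counts 169 to 173 and 34 to 35. Whether replicate numbers pair the samples was not settled. Deviations of same-numbered libraries correlated at -0.04 to -0.01 for MDA-MB-231, where no replicate correlated best with its own number. For MDA-MB-468 they correlated at 0.02 to 0.03, small values, but replicates 1, 2 and 3 correlated best with their own number and replicate 4 did not. With the replicate block, MDA-MB-231 had 2 members higher and 2 lower, MDA-MB-468 had 25 and 77, and the interaction had 13 and 36, while limma's adjusted p was above 0.05 for the interaction of ZNF382 (0.0594), for ZNF100, ZNF563 and ZNF146 in MDA-MB-468 (0.0599, 0.0537 and 0.0601) and for ZNF724 in MDA-MB-231 (0.0710), and that of ZNF546's interaction fell to 0.0429. The block was not run for the difference between lines. Some counts per cluster, picked after the data were seen, were compared as well. For glucose in MDA-MB-468 these were the lower calls of clusters IV, VI and VII and the higher calls of V. Between the lines they were the higher calls of IV, VI and VII and the lower calls of II. Each stayed within 1.5 times under the alternatives run for it, and other cluster counts were not compared. With 3 reads at 0.123 to 0.213 CPM, genes near 0 in MDA-MB-231 give lower bounds only. The cause of these differences was not tested.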

Other observations

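Inside the spans of the clusters, genes that are not ZNF-number genes were counted as well for high against low glucose in MDA-MB-468 by limma. The counts stand next to 24.9% higher and 22.7% lower of all 15757 genes. Those of cluster VI include ZFP14, ZFP82, ZFP30, ZNF585A and ZNF585B. In cluster VI 0 rose and 7 fell of 18 (median log2 change -0.11), in cluster VIII 1 rose and 5 fell of 12 (median -0.14), in cluster II 10 rose and 5 fell of 36, and in cluster IX 8 rose and 6 fell of 45 (median 0.02).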
